A study of Mus musculus with 42 samples.

Results

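Goblet cells of the distal mouse colon were compared between mice in which tamoxifen had deleted Smad4 in Gli1+ stromal cells and control mice. All genes of the deposited table of these cells were taken that had a name and a mean normalised read count of at least 10 over the 4 libraries, which gave 13078 genes of 13530 named rows, in 4 of the 42 libraries of the series. Goblet cells were isolated by flow cytometry as Muc2-mCherry+ cells, which carry a red fluorescent protein reporter of the mucin gene Muc2, and the sort itself was made on this reporter. GWTM2 mice carried Gli1-CreERT2 and Muc2-mCherry, and GS4M2 mice carried in addition Smad4 fl/fl alleles. Both groups received tamoxifen on 5 consecutive days, and cells were taken at day 30. Gli1-CreERT2 recombines in Gli1+ stromal cells, so Smad4 is not deleted in the goblet cells that were sorted. The mice were 2 to 4 months old and of both sexes. The labels give 2 libraries per group and do not give how many mice a library came from, so p-values measure only the spread between these libraries.

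Goblet cells make and secrete the gel of mucins that separates colonic epithelium from bacteria, and they add proteins that cross-link, trim or arm this gel. Bone morphogenetic protein (BMP) ligands signal through receptors such as Bmpr1a (also called Alk3) to Smad1, Smad5 and Smad8, which act in the nucleus together with Smad4. Smad4 also serves the TGF-beta branch. Interferons act through their receptors to switch on a battery of antiviral genes, and in the intestinal epithelium this battery is active at a low level without infection.

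Smad4 was first checked in both cell types. In sorted distal Gli1+ stromal cells the normalised read count of Smad4 was 1781 and 1703 in the control libraries and 680.3 and 1171 in the knockout libraries, a log2 fold change of -0.96 (limma adjusted p = 0.0424). In the goblet cells Smad4 was 2819.8 and 2790.3 in GWTM2 and 2571 and 2682 in GS4M2 libraries, a log2 fold change of -0.09 (SE 0.10, adjusted p = 0.733). Bmpr1a was 1659.7 and 1936 against 1374 and 1500.2 (-0.32, SE 0.13, adjusted p = 0.474). In the goblet cells both genes were lower in both GS4M2 libraries by less than the fold threshold, and reads of Smad4 remained in the stromal knockout libraries.

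The 4 libraries held 15985798 to 18965119 reads on named genes. The reads of goblet cell genes fitted the label, with Fcgbp, Muc2, Clca1, Zg16 and Agr2 at 42442 to 502074 normalised reads in each library. Tff3, Atoh1 and Spdef were at lower levels than these genes, with values given below. Absorptive colonocyte genes were also present: 28 of 30 markers were measured, with sums of 186608 and 254564 in GWTM2 and 160363 and 237766 in GS4M2 libraries. Of 34 tuft cell genes 18 were measured above the filter, and the 20 with a row summed to 13526 and 14665 against 10106 and 10280. Of 26 markers of stromal and smooth muscle cells, 6 were measured above the filter, and their summed level was 2082 and 2002 in GWTM2 and 2468 and 2707 in GS4M2 libraries. Of 35 immune cell markers 7 were measured above the filter, and the 9 with a row summed to 471.6 and 332.8 against 458.1 and 819.0. Of 16 endothelial and glial markers 4 were above the filter, and the 5 with a row summed to 193.7 and 393.9 against 212.5 and 241.8. The first GWTM2 library stood apart from the other 3: it was the only female one by Xist (21121 against at most 14.7), and it alone held high levels of MHC class II genes and of Mmp7 (453 against at most 5.52). Some results are given with and without it, among them the lists of interferon-stimulated, antigen presentation and transport genes, and Muc2. Most single genes are given with all 4 libraries only. Some of these fall below the fold threshold without it, such as Akr1b8 (log2 fold change 1.12 with it and 0.52 without) and Anxa8 (1.07 and 0.90). The median absolute log2 difference between replicates was 0.261 in GWTM2 and 0.165 in GS4M2 cells.

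No gene passed an adjusted p of 0.05 in limma (smallest adjusted p = 0.259) or in edgeR's quasi-likelihood test. DESeq2 on the recovered reads called 147 genes, 59 higher and 88 lower in GS4M2 cells, which was 1.12% of the genes tested. With an unadjusted p under 0.05 and a difference of at least 1 on the log2 scale, limma found 353 genes (2.7%), 163 of them higher (1.25%) and 190 lower (1.45%), edgeR 392 genes (3%) and DESeq2 386 genes (2.95%). A gene that met this unadjusted limma threshold is called here past the threshold, and none of these genes is a call of limma or edgeR after adjustment. DESeq2 called 59 of the 163 higher and 86 of the 190 lower ones, and 27 of the higher and 37 of the lower had a mean under 10 in the group where they were low, so they passed the filter through the other group. Among 86 named genes past the threshold 10 did so: Neurog3, Lyz1, Hoxb6, Hoxb7, Gata5, Nkx2-2, B3gnt8, Trpv6, Tgtp2 and Cxcl9. The GWTM2 and GS4M2 libraries did not overlap for 45.7% of all genes, 23.1% with GS4M2 above and 22.6% below. When each library was left out in turn, 100 genes remained past the threshold every time, 38 higher and 62 lower, and DESeq2 called 86 of these 100.

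**Figure D1:**
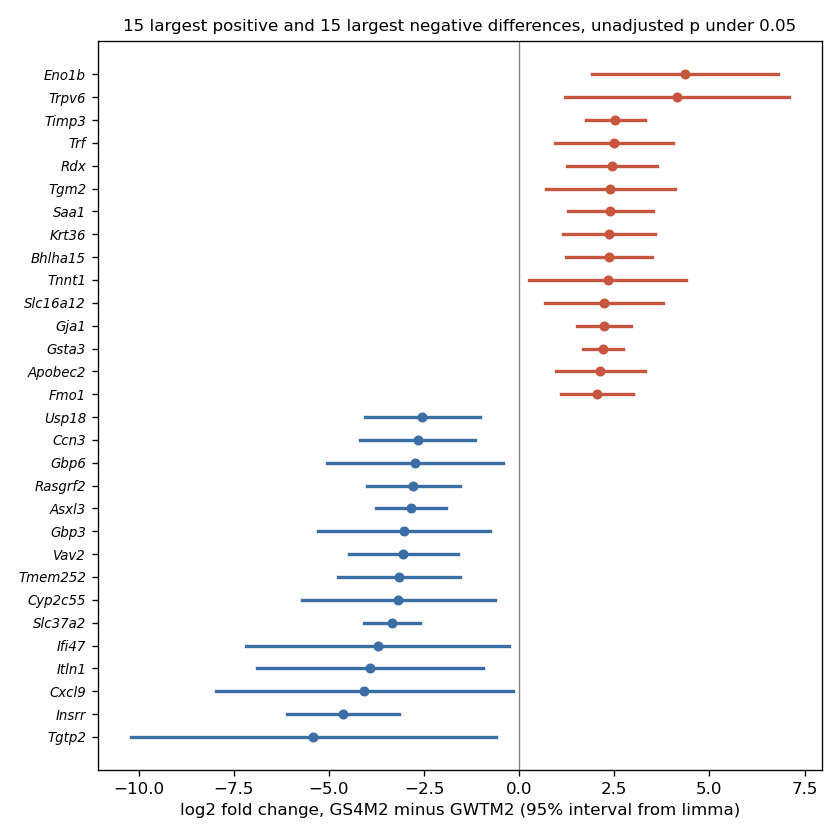
The 15 largest positive and the 15 largest negative differences among genes past the unadjusted threshold with a mean value of at least 50, as log2 fold change of GS4M2 against GWTM2 goblet cells on the horizontal axis. Points are limma estimates and bars their 95% intervals, from 2 libraries per group, and none of these genes passed adjustment in limma. Tgtp2 at -5.41 has the widest interval and Gsta3 at 2.20 one of the narrowest.

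Of the interferon-stimulated genes 58 were measured. In GS4M2 goblet cells 54 of the 58 had a log2 fold change below 0, and 16 were past the threshold, all lower. The 2 groups were apart with GS4M2 lower for 35, beside 22.6% of all genes, and with GS4M2 higher for none, beside 23.1%. The median log2 fold change was -1.11, against 0.00288 over all genes tested, and the lower share of 16 in 58 stands beside 1.45% of all genes. DESeq2 called 11 of the 58, all lower, beside 0.673% of all genes, while limma and edgeR called none after adjustment. In bulk samples, fewer cells that express a gene and less RNA per cell cannot be told apart.

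Promoters of 4 of these genes are printed because each holds the interferon-stimulated response element, a motif of genes that interferon switches on. The motif searched was GAAA, any 2 bases and GAAA again, on both strands. Capitals mark each match, which reads TTTC, any 2 bases and TTTC where it lies on the other strand; in Irgm1 and Gbp3 a pair of matches overlaps. Each sequence is the 150 bases before the gene's start, 5′ to 3′ along the gene, from RefSeq on GRCm38.p6.
Rsad2 (chr12:26456453-26456602, minus strand): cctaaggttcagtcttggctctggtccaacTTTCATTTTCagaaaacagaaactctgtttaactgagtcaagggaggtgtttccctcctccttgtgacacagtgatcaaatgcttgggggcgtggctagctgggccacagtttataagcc
Trim30a (chr7:104465194-104465343, minus strand): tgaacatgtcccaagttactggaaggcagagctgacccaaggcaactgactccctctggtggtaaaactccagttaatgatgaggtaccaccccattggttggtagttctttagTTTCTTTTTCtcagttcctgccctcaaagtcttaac
Irgm1 (chr11:48871421-48871570, minus strand): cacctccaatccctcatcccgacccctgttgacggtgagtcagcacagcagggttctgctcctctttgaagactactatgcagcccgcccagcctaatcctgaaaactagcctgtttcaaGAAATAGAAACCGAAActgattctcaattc
Gbp3 (chr3:142559894-142560043, plus strand): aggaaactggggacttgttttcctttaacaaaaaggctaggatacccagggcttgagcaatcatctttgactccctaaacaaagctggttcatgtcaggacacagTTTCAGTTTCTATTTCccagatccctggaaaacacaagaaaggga
The matches began 120 bases before the start in Rsad2, 36 in Trim30a, 30 and 24 in Irgm1, and 45 and 39 in Gbp3. Searched from 250 bases before to 50 after the start, the motif was in 3.49% of 27025 RefSeq promoters. Among genes tested that had a promoter entry it was in 2.99% of 10174, and in 24 of the 44 interferon-stimulated ones (54.5%). Its share was 54.5% both in the 11 with an entry that were past the threshold and in the 33 that were not. Of all genes past the threshold and lower, 15 of 144 with an entry held it (10.4%), and of those past the threshold and higher 3 of 125 (2.4%). Outside the interferon list the lower share was 9 of 133 (6.77%).

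Of the intracellular sensors of viral RNA, 2 were past the threshold. Ddx58, which encodes RIG-I (GRCm38 chr4:40203773-40239828, minus strand), was 532 and 619 in GWTM2 and 163 and 265 in GS4M2 libraries, a log2 fold change of -1.46 (SE 0.27, adjusted p = 0.37, DESeq2 adjusted p = 0.00164). Dhx58, its relative LGP2, was 183 and 282 against 69.2 and 117 (-1.33, SE 0.37, DESeq2 adjusted p = 0.0866). Ifih1, or MDA5, named after its values were seen, was 1554 and 1605 against 767 and 1042 (-0.82, SE 0.18, DESeq2 adjusted p = 0.0253) and below the fold threshold. In these 3 genes the higher GS4M2 library was still below the lower GWTM2 library.

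Rsad2, or viperin, which makes an antiviral nucleotide, was 395 and 267 in GWTM2 and 74.9 and 149 in GS4M2 libraries (-1.61, SE 0.40, adjusted p = 0.386), and Cmpk2, its genomic neighbour and a mitochondrial nucleotide kinase, was 371 and 279.6 against 93.0 and 172 (-1.34, SE 0.36). Oasl2, of the oligoadenylate synthetase family, was 701 and 1134 against 89.2 and 404 (-2.23, SE 0.73). Parp14, an ADP-ribosyltransferase, was 2166 and 1372 against 440.1 and 809.8 (-1.53, SE 0.36). Ifi44, Rtp4, Xaf1 and Trim30a differed by -2.30, -2.03, -1.66 and -1.15 on the log2 scale. For each of these 8 genes both GS4M2 libraries were below both GWTM2 libraries, and the first GS4M2 library was the lowest. DESeq2 adjusted p were 0.0241 for Rsad2, 0.00454 for Parp14 and 0.0393 for Xaf1, and for the other 5 they ranged from 0.0561 for Cmpk2 to 0.537 for Oasl2.

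Usp18, the protease that removes ISG15 and damps the type I receptor (GRCm38 chr6:121245906-121270917, plus strand), was 117 and 90.6 in GWTM2 and 9.49 and 29.4 in GS4M2 libraries, a log2 fold change of -2.54 (SE 0.59, 95% interval -4.05 to -1.04, adjusted p = 0.381, DESeq2 adjusted p = 0.0194). Herc6, an ISG15 ligase of the mouse, was 216 and 247 against 36.0 and 80.9 (-2.07, SE 0.43, DESeq2 adjusted p = 0.00355). Isg15 itself, at 86.3 and 239 against 24.7 and 128, overlapped between groups (-1.33, SE 0.89, adjusted p = 0.605). Isg15 and Ifit1 (41.1 and 419 against 6.64 and 96.5) are named after their values were seen, as members whose groups overlapped.

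Several GTPases that interferon-gamma induces were highest in the first GWTM2 library. Irgm1, an immunity-related GTPase, was 3023 and 998 in GWTM2 and 513 and 708 in GS4M2 libraries (-1.53, SE 0.53). Gbp3, a guanylate-binding protein, was 608 and 136 against 19.0 and 61.6 (-3.03, SE 0.88), and Gbp6 was 505 and 83.8 against 20.9 and 43.2 (-2.74, SE 0.90). Tgtp2 was 846 and 14.7 against 0.949 and 2.76 (-5.41, SE 1.88), and Ifi47 was 1199 and 88.3 against 11.4 and 48.7 (-3.72, SE 1.35). In all of these the first GWTM2 library was far above the second, and the second was still above both GS4M2 libraries. Cxcl9, a chemokine of the same response, was 274 and 10.2 against 1.90 and 2.76 (-4.07, SE 1.53). Without the first GWTM2 library the log2 fold change was -0.73 for Irgm1, below the fold threshold, -1.95 for Gbp3, -1.45 for Gbp6 and -1.85 for Ifi47 (unadjusted p = 0.0675, no longer past the threshold). Without it Tgtp2 and Cxcl9 had mean values under 10 and could not be fitted. Gbp and Tgtp genes have near-identical relatives, so their counts may be shared between copies and are uncertain.

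Over the 58 interferon-stimulated genes the highest library was the first GWTM2 library for 32, the second for 23, the second GS4M2 library for 3 and the first GS4M2 library for none. The summed level was 71418 and 36551 in GWTM2 and 23120 and 32154 in GS4M2 libraries. Without the first GWTM2 library the median log2 fold change was -0.89, and 21 of the 56 then measured were past the threshold and lower, beside 3.01% of all genes in that fit. In the same fit 1 was past it and higher, beside 2.56% of all genes. This was Irf8 (3188 and 1285 against 3182 and 3259.6 with all 4 libraries). Leaving out the second GWTM2, the first GS4M2 or the second GS4M2 library gave medians of -1.31, -0.67 and -1.73. The counts past the threshold and lower were then 29 of 56 beside 2.62% of all genes, 7 of 58 beside 1.18% and 25 of 58 beside 1.38%. All 4 medians lay below 0, and the count fell from 16 to 7 without the first GS4M2 library, which was the lowest of the 4 for 47 of the 58 genes.

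**Figure D2:**
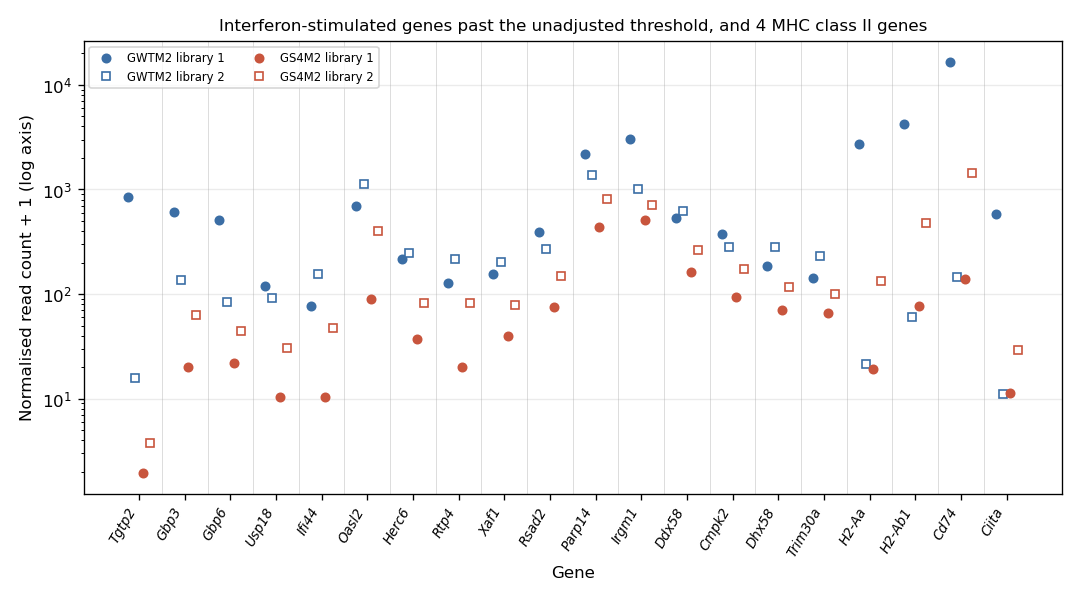
Normalised read count plus 1, on a log axis, of the 16 interferon-stimulated genes past the unadjusted threshold and of 4 MHC class II genes, with 1 symbol for each of the 4 libraries (blue for GWTM2, red for GS4M2, filled for library 1, open for library 2). Both red symbols lie below both blue ones in the 16 genes on the left, while in H2-Aa, H2-Ab1, Cd74 and Ciita only GWTM2 library 1 is high.

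MHC class II genes were high in 1 library rather than in 1 group. Cd74, the invariant chain, was 16620.5 and 146 in GWTM2 and 138 and 1434 in GS4M2 libraries, and H2-Aa was 2723 and 20.4 against 18.0 and 133. Ciita, the class II master regulator, was 587 and 10.2 against 10.4 and 28.5, and B2m, the light chain of class I, was 16275 and 3971 against 2634 and 4332. Of 15 genes of antigen presentation none was past the threshold, 14 had a log2 fold change below 0 and the median was -1.25. Without the first GWTM2 library the median was 0.55, and without the second it was -3.26, so the direction of this list turned with the library.

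Muc2, which encodes the main gel-forming mucin (GRCm38 chr7:141690340-141754693, plus strand), was 43021 and 113478 in GWTM2 and 238217 and 194631 in GS4M2 libraries, or 0.243% and 0.627% against 1.42% and 1.12% of reads on named genes. The groups did not overlap, and the log2 fold change was 1.62 (SE 0.50, 95% interval 0.34 to 2.91, adjusted p = 0.43); in DESeq2 the adjusted p was 0.0253. The reporter used for the sort is an allele of this gene, so the level of Muc2 and the sort gate are not independent. Without the first GWTM2 library the log2 fold change was 0.92.

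The other mucins did not share this difference. The membrane-bound mucins Muc4 (18519 and 17044 against 12182 and 10676) and Muc3a (2817 and 3009.9 against 1703 and 1559) were lower in both GS4M2 libraries, by log2 fold changes of -0.64 (SE 0.14) and -0.84 (SE 0.11), which are below the fold threshold; DESeq2 adjusted p were 0.00859 and 0.000119. Muc3a is named after its values were seen. Muc13 (38689 and 25622 against 25408 and 31918), Muc3 (6933 and 19531 against 9581 and 17531) and Muc20 (97.3 and 99.6 against 109 and 84.6) overlapped between groups. Of 8 mucins, Muc2 alone was past the threshold, and the median log2 fold change was -0.15.

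Other secreted goblet cell products were mostly lower by small amounts. Of 35 measured, 29 had a log2 fold change below 0, 20 had GS4M2 libraries below GWTM2 libraries, beside 22.6% of all genes, and the median was -0.35. Fcgbp, which cross-links the mucus gel, was 195839 and 502074 against 229990.0 and 309842 (-0.23, SE 0.54), and Clca1, a metalloprotease of the mucus, was 107214 and 321012 against 68869 and 160158 (-0.82, SE 0.67). Zg16, a lectin that aggregates Gram-positive bacteria, was 155364 and 105528 against 62411 and 96364 (-0.72, SE 0.34). Fcgbp and Clca1 overlapped between the groups, and Zg16 did not. Agr2, a disulfide isomerase needed for Muc2 folding, was 54012 and 42545 against 56081 and 42442 (0.03, SE 0.23).

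Among these products 2 were past the threshold, beside 2.7% of all genes. Retnlb, an antibacterial resistin-like protein, was 27662 and 12049 in GWTM2 and 42246 and 41338 in GS4M2 libraries (1.19, SE 0.40, adjusted p = 0.446). Ccl9, a chemokine, was 1706 and 1126 against 568 and 442 (-1.47, SE 0.25, adjusted p = 0.37, DESeq2 adjusted p = 8.39e-05). Tff3, the trefoil peptide of goblet cells, was 34603 and 18362 against 10263 and 21751 (-0.75, SE 0.46), and its groups overlapped.

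**Figure D3:**
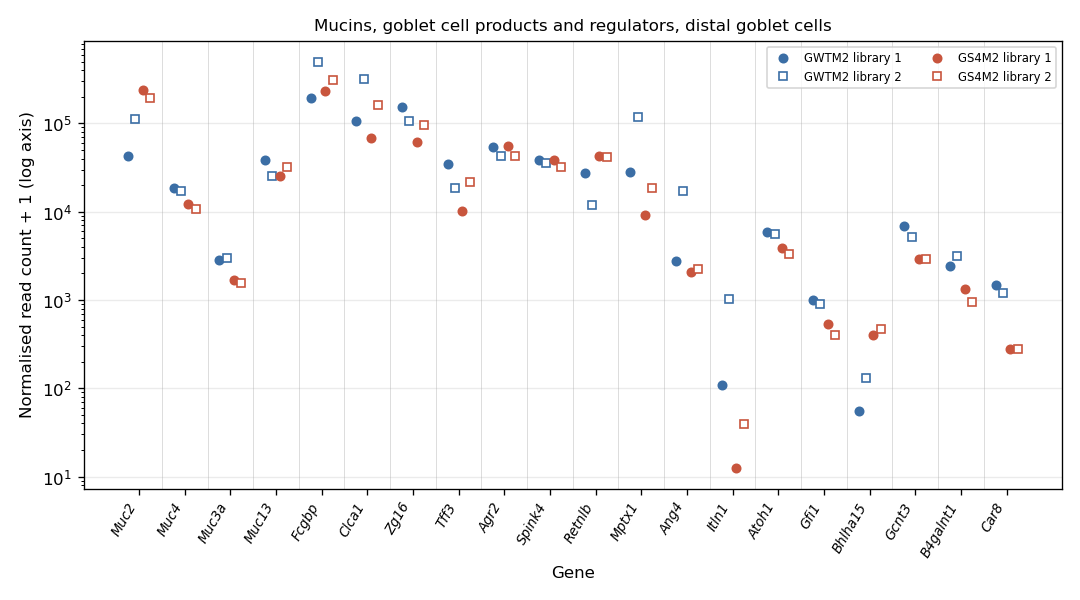
Normalised read count plus 1, on a log axis, of mucins, secreted products, transcription factors, glycosyltransferases and Car8 in the 4 distal goblet cell libraries (blue for GWTM2, red for GS4M2, filled for library 1, open for library 2). Muc2, Retnlb and Bhlha15 show both red symbols above both blue ones, Muc4, Muc3a, Gfi1, Gcnt3, B4galnt1 and Car8 both below, and Fcgbp, Clca1, Agr2 and Spink4 overlap.

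Among 33 transcription factors of secretory and intestinal cells, 2 were past the threshold and higher and 3 lower, beside 1.25% and 1.45% of all genes. Bhlha15, or Mist1, which scales up the secretory apparatus of exocrine cells (GRCm38 chr5:144190286-144194441, plus strand), was 54.2 and 130.2 in GWTM2 and 400.3 and 472 in GS4M2 libraries, a log2 fold change of 2.36 (SE 0.44, adjusted p = 0.37, DESeq2 adjusted p = 0.000178). Gfi1, a repressor that favours goblet over enteroendocrine fate, was 1005 and 908 against 533 and 399.9 (-1.05, SE 0.18, DESeq2 adjusted p = 0.00258). Neurog3, the factor that specifies enteroendocrine cells, was 4.01 and 6.79 against 16.1 and 34.0 (1.97, SE 0.62, DESeq2 adjusted p = 0.389) and passed the filter through its GS4M2 libraries.

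Isx, an intestinal homeobox repressor of vitamin A conversion, was 752 and 712 against 324 and 381 (-1.06, SE 0.15, DESeq2 adjusted p = 0.000297). Gata5 was 37.1 and 35.1 in GWTM2 libraries, 0 in the first and 4.60 in the second GS4M2 library (-3.97, SE 0.95), while its relative Gata6 was 1300.5 and 1606 against 1262 and 1586. Atoh1, the master regulator of secretory fate, was 5817 and 5545 against 3929.7 and 3319 (-0.65, SE 0.13), and Spdef, which drives goblet maturation, was 7086 and 4179 against 5596 and 5612 (0.04, SE 0.26). Atoh1 was lower in both GS4M2 libraries but below the fold threshold, and Spdef lay between the GWTM2 values. Atoh1 and Gata6 are named after their values were seen.

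Genes of folding and stress in the endoplasmic reticulum moved little: none of 41 was past the threshold, and the median log2 fold change was 0.05. Hspa5, the main chaperone, was 33296 and 15828 against 29382 and 22151 and Xbp1, the transcription factor of the unfolded protein response, was 8515 and 6265 against 7304 and 6283. 3 secretory pathway genes outside that list, chosen after their values were seen, were higher. Fkbp11 was 196 and 205 against 687 and 478 (1.51, SE 0.22, DESeq2 adjusted p = 5.6e-05) and Creb3l2 was 254 and 146 against 472 and 431 (1.22, SE 0.30). Emc8, a subunit of the membrane protein insertase of this organelle, was 704 and 637 against 1679.8 and 1677 (1.32, SE 0.12) and was among the 5 genes of smallest limma p.

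Of 45 glycosylation and sulfation enzymes that build mucin sugars, 1 was past the threshold and higher and 2 lower, beside 1.25% and 1.45% of all genes. In this list 29 had a log2 fold change below 0 (median -0.17). Gcnt3, which makes the branched core structures of mucins, was 6806 and 5165 in GWTM2 and 2924 and 2922 in GS4M2 libraries (-1.02, SE 0.16, adjusted p = 0.37, DESeq2 adjusted p = 9.87e-05). B4galnt1 was 2458 and 3113 against 1344 and 950.5 (-1.29, SE 0.21, DESeq2 adjusted p = 0.000177). B3gnt8 was low, at 9.03 and 5.66 against 24.7 and 18.4 (1.45, SE 0.53). Among 16 genes of sulfate supply, Sult1d1, a cytosolic sulfotransferase, was past the threshold at 1233 and 2528 against 849.9 and 814 (-1.08, SE 0.34).

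Car8 had the smallest p of all genes in limma. This carbonic anhydrase-related protein, which lacks enzyme activity (GRCm38 chr4:8143362-8239041, minus strand), was 1489 and 1199.9 in GWTM2 and 276 and 279 in GS4M2 libraries. The log2 fold change was -2.27 (SE 0.16, 95% interval -2.67 to -1.86, adjusted p = 0.259), and the adjusted p of DESeq2 was 1.02e-21. The groups were far apart and the replicates close.

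Car8 belongs to the list of 50 ion and water transport genes, of which 36 had a log2 fold change below 0 (median -0.21). Sgk1, a kinase that raises sodium uptake, was 1886 and 1698 against 708 and 591 (-1.47, SE 0.14, adjusted p = 0.263, DESeq2 adjusted p = 2.37e-10). Atp12a, the colonic proton-potassium pump, was 495 and 544 against 944 and 1792 (1.32, SE 0.31). Sgk1 was lower and Atp12a higher in both GS4M2 libraries. Trpv6, a calcium channel of absorptive epithelium, was 6.02 and 9.06 in GWTM2 and 43.6 and 495 in GS4M2 libraries (4.15, SE 1.15), so its estimate rests largely on the second GS4M2 library.

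The 6 measured transport genes that the study chose on these samples had log2 fold changes below 0 in all 6, and the groups overlapped in each. They are no independent evidence of a direction. Slc26a3, the chloride-bicarbonate exchanger of the surface, was 1245 and 6963 against 1447 and 1772 (-0.88, SE 0.79), Slc16a9 was 45.2 and 149 against 64.5 and 83.7 (-0.16), and Fxyd3 was 171 and 311 against 246 and 187 (-0.11). Chp2 was 576 and 2375 against 930.5 and 1157 (-0.17), Slc16a10 was 166 and 175 against 151 and 182 (-0.04), and Sult1c2 was 119 and 409.8 against 68.3 and 158 (-1.08). Without the first GWTM2 library the median of the 6 was -1.10, and without the second it was 0.34.

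Deep crypt secretory genes, the colonic counterpart of Paneth cell genes, were lower for 13 of 15 (median -0.51). Mptx1, a mucosal pentraxin, was 28389 and 117577 in GWTM2 and 9112 and 18793 in GS4M2 libraries (-2.14, SE 0.73). Itln1, a lectin that binds microbial sugars, was 109 and 1014 against 11.4 and 38.6 (-3.92, SE 1.16, adjusted p = 0.422), and Ang4, an antimicrobial ribonuclease, was 2742 and 17178 against 2072 and 2249 (-1.67, SE 0.84). In these 3 genes the second GWTM2 library was far above the first, and both GS4M2 libraries were below the first. Lyz1, lysozyme of Paneth cells, was 8.03 and 0 against 53.1 and 44.1 and passed the filter through its GS4M2 libraries.

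Of 17 enteroendocrine genes 14 had a log2 fold change above 0 (median 0.41). Past the threshold, 3 were higher, Neurog3 with the values above, Pyy and Insl5, and 2 were lower, beside 1.25% and 1.45% of all genes. Pyy, peptide YY, was 44.2 and 78.1 against 98.6 and 177 (1.16, SE 0.44), and Insl5, a hormone of distal colonic L cells, was 15.1 and 23.8 against 40.8 and 97.4 (1.69, SE 0.55), both at low levels. Pcsk1, a prohormone convertase, was 627 and 417 against 283 and 201 (-1.10, SE 0.28) and Nkx2-2, an endocrine transcription factor, was 20.1 and 27.2 against 10.4 and 7.35 (-1.32, SE 0.50). DESeq2 called Pcsk1 (adjusted p = 0.0431) and none of the other 4.

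Cell cycle genes were shifted by little but in 1 direction. Of 60 genes of DNA replication 59 had a log2 fold change above 0 (median 0.23), against 50.3% of all genes, and of 80 mitosis genes 70 did (median 0.26). Only Gins2, a subunit of the replicative helicase, was past the threshold, at 271 and 200.4 against 502 and 529 (1.14, SE 0.20, DESeq2 adjusted p = 0.00338). Mki67 was 6813 and 6327 against 9283 and 7508 (0.35, SE 0.15) and Top2a was 5731 and 3882 against 5425 and 4547 (0.07, SE 0.22). Over the fits that each left out 1 library the medians ranged from 0.11 to 0.37 for replication and from 0.12 to 0.39 for mitosis. Cytosolic ribosomal protein genes were above 0 for 64 of 81 (median 0.15).

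Wnt, BMP and insulin-family signalling genes were next. Axin2, a target and inhibitor of Wnt signalling, was 439.5 and 523 in GWTM2 and 775 and 1201 in GS4M2 libraries (1.01, SE 0.25, DESeq2 adjusted p = 0.0255), and Prom1, which marks crypt base cells, was 6139 and 6131 against 2598 and 3581 (-1.01, SE 0.18, DESeq2 adjusted p = 0.000948). The stem cell receptor Lgr5, named after its values were seen, was 144 and 175 against 135 and 217. Of 30 stem cell and Wnt target genes 20 had a log2 fold change above 0 (median 0.24). The groups were apart with GS4M2 higher for 11 and lower for 2, beside 23.1% and 22.6% of all genes. Only Axin2 and Prom1 were past the threshold, on opposite sides, beside 1.25% higher and 1.45% lower of all genes.

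Of 23 BMP genes 13 had a log2 fold change below 0 (median -0.05), and DESeq2 called 1, Bmp3. In limma 3 were past the threshold and higher and 2 were past it and lower, beside 1.25% and 1.45% of all genes. Among targets, Smad6, an inhibitory Smad that BMP induces, was 152 and 351 against 435 and 547 (1.08, SE 0.42, DESeq2 adjusted p = 0.357), Atoh8 was 28.1 and 43.0 against 81.6 and 96.5 (1.33, SE 0.35, DESeq2 adjusted p = 0.197) and Id1 was 1763 and 2211 against 2975 and 4950.1 (0.96, SE 0.27). These 3 had GS4M2 libraries above GWTM2 libraries, with Id1 just below the fold threshold. Among ligands, Bmp8b was 29.1 and 47.5 against 80.6 and 181 (1.67, SE 0.50, DESeq2 adjusted p = 0.0986), Bmp3 was 249.9 and 414 against 101 and 112 (-1.59, SE 0.30, DESeq2 adjusted p = 0.00177) and Bmp7 was 121 and 161 against 84.4 and 38.6 (-1.27, SE 0.44, DESeq2 adjusted p = 0.325).

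Insrr, the insulin receptor-related receptor that senses alkaline medium (GRCm38 chr3:87796951-87816101, plus strand), was 273 and 377 in GWTM2 and 6.64 and 21.1 in GS4M2 libraries. Its log2 fold change of -4.63 (SE 0.57, adjusted p = 0.37, DESeq2 adjusted p = 3.13e-14) was, among the genes named by rule, the largest negative one after that of Tgtp2. Ccn3, a secreted matricellular protein, was 21221 and 30045 against 7358 and 2138 (-2.67, SE 0.59), and the signalling exchange factors Vav2 (218 and 132 against 32.2 and 11.9) and Rasgrf2 (247 and 132 against 35.1 and 18.4) differed by -3.04 and -2.78. Each of these had both GS4M2 libraries below both GWTM2 libraries. Asxl3, a chromatin regulator, was 173 and 128 against 23.7 and 16.5 (-2.84, SE 0.36), Tmem252 was 201 and 62.3 against 10.4 and 12.9 (-3.17) and Rgs2, a brake on G protein signalling, was 612 and 221 against 57.9 and 80.9 (-2.41, SE 0.52).

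Of 35 genes of epithelial injury and repair 19 had a log2 fold change above 0 and 16 below (median 0.10). In this list 3 were past the threshold, each of them higher, beside 1.25% of all genes. Lama3, a chain of the basement membrane laminin, was 259.9 and 222 in GWTM2 and 627 and 1109.5 in GS4M2 libraries (1.79, SE 0.30, DESeq2 adjusted p = 2.6e-05), Cldn4, a claudin of tight junctions, was 445 and 554 against 1222 and 3148 (1.98, SE 0.45) and Anxa8 was 542 and 686 against 1097 and 1499 (1.07, SE 0.21). Saa1, an acute phase apolipoprotein of epithelium, was 1386 and 1241 against 4323 and 10975 (2.39, SE 0.44, DESeq2 adjusted p = 1.98e-07), and its reads may be shared with its near copy Saa2. NF-kB subunits and feedback inhibitors had none of 31 past the threshold and a median of -0.12.

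The other large positive differences came from varied families. Timp3, an inhibitor of metalloproteases, was 21.1 and 26.0 against 138 and 142 (2.53, SE 0.30, DESeq2 adjusted p = 4.73e-06), Gja1, the gap junction protein connexin 43, was 65.2 and 99.6 against 409 and 353 (2.22, SE 0.28) and Tgm2, a transglutaminase, was 342 and 83.8 against 773 and 1041 (2.40, SE 0.66). Timp3 and Gja1 had close replicates in both groups, and Tgm2 did not. Trf, transferrin, was 130.5 and 461 against 1133 and 1682 (2.49, SE 0.61) and Rdx, the cytoskeletal linker radixin, was 38.1 and 83.8 against 247 and 395 (2.44, SE 0.46). Krt36, a hair-type keratin, was 34.1 and 24.9 against 102 and 231 (2.36), Tnnt1, a slow muscle troponin, differed by 2.33 (SE 0.80), Slc16a12, a creatine transporter, was 46.2 and 156 against 326 and 495 (2.23) and Apobec2 was 25.1 and 18.1 against 69.2 and 136 (2.14). Eno1b had the largest positive estimate of the genes named by rule, at 97.3 and 11.3 against 716 and 711 (4.36, SE 0.96), but it shares sequence with Eno1 (12155 and 11208 against 9165 and 8646), so its count is uncertain. DESeq2 adjusted p were above 0.05 for Trf (0.2), Tgm2 (0.358), Eno1b (0.114) and Tnnt1 (0.0642), and below it for the other genes of this paragraph that were past the threshold.

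Metabolic genes held both directions. Pck1, which encodes the rate-limiting enzyme of gluconeogenesis, was 5943 and 6118 in GWTM2 and 2694 and 2734 in GS4M2 libraries (-1.15, SE 0.10, adjusted p = 0.259, DESeq2 adjusted p = 2.15e-12), and Slc37a2, a sugar phosphate exchanger, was 372 and 358 against 28.5 and 43.2 (-3.34, SE 0.29, DESeq2 adjusted p = 3.68e-18). Both had close replicates. Cps1, the first enzyme of the urea cycle, was 243 and 431 against 709 and 1178 (1.49, SE 0.37), Srm, spermidine synthase, was 704 and 534 against 1415 and 1159 (1.06, SE 0.19) and Gatm, which starts creatine synthesis, was 183 and 195 against 399 and 518 (1.27, SE 0.20). These 3 of 27 urea cycle and polyamine genes were past the threshold and higher, beside 1.25% of all genes. DESeq2 called all 3, and the list median was 0.21.

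Of 93 genes of retinoid, steroid and xenobiotic metabolism 7 were past the threshold and higher and 1 lower, beside 1.25% and 1.45% of all genes. The list median was 0.03. Gsta3, a glutathione transferase, was 204 and 257 against 1209 and 925 (2.20, SE 0.21, adjusted p = 0.259, DESeq2 adjusted p = 1.3e-13), Nqo1, a quinone reductase, was 248 and 397 against 990.2 and 654 (1.36, SE 0.31) and Fmo1, a flavin monooxygenase, was 26.1 and 27.2 against 88.2 and 147 (2.06, SE 0.37). Akr1b8, Rdh16, Cyp2d9 and Cyp2d12 differed by 1.12, 1.24, 1.84 and 1.30, and reads of the Cyp2d genes may be shared between copies. Cyp2c55, a cytochrome P450 of the colon, was 338 and 2948 against 122 and 98.4 (-3.18, SE 0.99), with the second GWTM2 library far above the rest.

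The 8 mitochondrially encoded genes were lower in both GS4M2 libraries than in both GWTM2 libraries in all 8, beside 22.6% of all genes. Their median log2 fold change was -0.61, with none past the threshold. They took 2.37% and 3.05% of the reads on named genes in GWTM2 and 1.93% and 2.1% in GS4M2 libraries. Nuclear genes of oxidative phosphorylation had a median of 0.01 over 77. What moves the mitochondrial share was not tested.

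**Figure D4:**
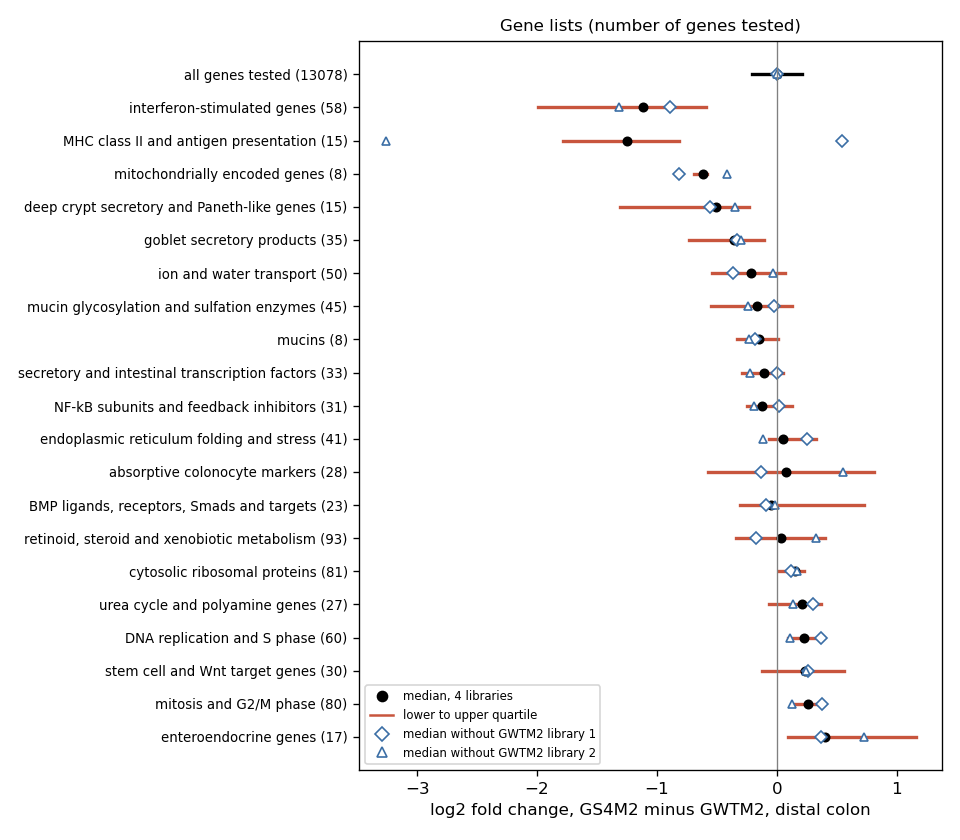
Median log2 fold change (black points) with lower and upper quartile (bars) of GS4M2 against GWTM2 distal goblet cells for all genes tested and for 20 gene lists, and the medians without the first (diamonds) or the second (triangles) GWTM2 library. Interferon-stimulated genes lie at -1.11 with both medians below 0, while MHC class II genes turn from -3.26 to 0.55 with the library left out.

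Markers of position along the colon differed between the groups in a few genes. Hoxb6 was 36.1 and 58.9 in GWTM2 and 3.79 and 2.76 in GS4M2 libraries (-3.47, SE 0.53, DESeq2 adjusted p = 0.00294), and Hoxb7 was 26.1 and 18.1 against 0.949 and 6.43 (-2.58, SE 0.83). Hoxb13, a homeobox gene of the distal end, was 3201 and 3482 against 4425 and 5519 (0.57, SE 0.15), and was not past the threshold. Hoxb6 and Hoxb7 are high in proximal goblet cells (Hoxb6 1625 and 1831 in proximal GWTM2 libraries) and low in distal ones. Of 24 Hox and segment genes, 1 was past the threshold and higher and 4 were past it and lower, beside 1.25% and 1.45% of all genes. Hoxb6 and Hoxb7, among these 4, passed the filter through their GWTM2 libraries.

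The same genotypes were compared in proximal goblet cells in a table normalised by itself. Its deposited column names and the column headings of the study's supplement assign the 2 groups in opposite ways; the deposited names were used, and with the other headings each proximal sign would turn. With the deposited names all 7 transport genes that the study chose were past the threshold and lower in proximal cells (median -1.89). The study chose them on these samples, so they are no independent evidence of a direction here either. With the deposited names, 43 of 13246 genes were called in the proximal colon by limma (0.325%) and 567 were past the unadjusted threshold (4.28%). The fold change differed between distal and proximal colon at an adjusted p under 0.05 for none of 13002 genes in limma (smallest adjusted p = 0.189), and at an unadjusted p under 0.05 for 1127 (8.67%). An alternative with the proximal groups exchanged was added after the data were seen. These counts were then 160 (1.23%, smallest adjusted p = 0.00374) and 2687 (20.7%), so each comparison of the segments depends on the names. Of 77 named genes past the threshold in distal cells, 22 differed between segments at an unadjusted p under 0.05. With the groups exchanged 71 did. The median of 5 sex-linked genes was 4.77 in distal cells and, with the deposited names, 4.99 in proximal cells. The paper reports lower transport genes, mainly in the proximal colon, which is their direction under the deposited names. Which assignment holds was not tested.

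With the deposited names, some distal differences were larger in size than the proximal ones. In Car8 and in Rasgrf2 (proximal log2 fold change -0.20) the proximal difference was smaller but had the same direction. Car8 was 5103 and 7524 in proximal GWTM2 and 4481 and 4745 in proximal GS4M2 libraries, a log2 fold change of -0.43, and the distal minus proximal difference was -1.84 (SE 0.26, unadjusted p = 0.000189, adjusted p = 0.319). For Hoxb6 that difference was -3.49 (unadjusted p = 3.66e-05, adjusted p = 0.234), for Asxl3 -3.36 (0.00024, adjusted p = 0.319) and for Rasgrf2 -2.59 (0.00152, adjusted p = 0.546). For Gcnt3, Prom1 and Ccl9 it was -0.96, -1.09 and -1.45, with unadjusted p of 0.00506, 0.00327 and 0.003 and an adjusted p of 0.565 each. None of these differences passed adjustment with the deposited names. With the proximal groups exchanged they had the same sign, at -2.69 for Car8 (adjusted p = 0.0141), -3.46 for Hoxb6 (0.0254), -2.33 for Asxl3 (0.0816), -2.98 for Rasgrf2 (0.0524), -1.08 for Gcnt3, -0.93 for Prom1 and -1.48 for Ccl9.

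With the deposited names other genes had the same direction in both segments. Bhlha15 differed by 3.38 in proximal cells (adjusted p = 0.0177), Timp3 by 3.25 (0.0177), Cldn4 by 2.92 (0.0172), Lama3 by 2.89 (0.00844), Sgk1 by -1.56 (0.0177) and Insrr by -2.59 (0.0172). Muc2 differed by 1.00 (adjusted p = 0.237), and its distal minus proximal difference was 0.62 (SE 0.62, unadjusted p = 0.35). The interferon-stimulated genes had a proximal median of -0.65 with 11 past the threshold and lower and none higher, and for 1 of the 58 the segments differed at an unadjusted p under 0.05. The medians of replication and mitosis genes were -0.18 and -0.28 in proximal cells, and the segments differed at an unadjusted p under 0.05 for 21 of 60 and 36 of 80 of these genes, beside 8.67% of all genes, with none after adjustment. With the proximal groups exchanged the 3 counts were 31 of 58, 3 of 60 and 5 of 80, beside 20.7% of all genes, and the difference for Muc2 was 2.62.

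**Figure D5:**
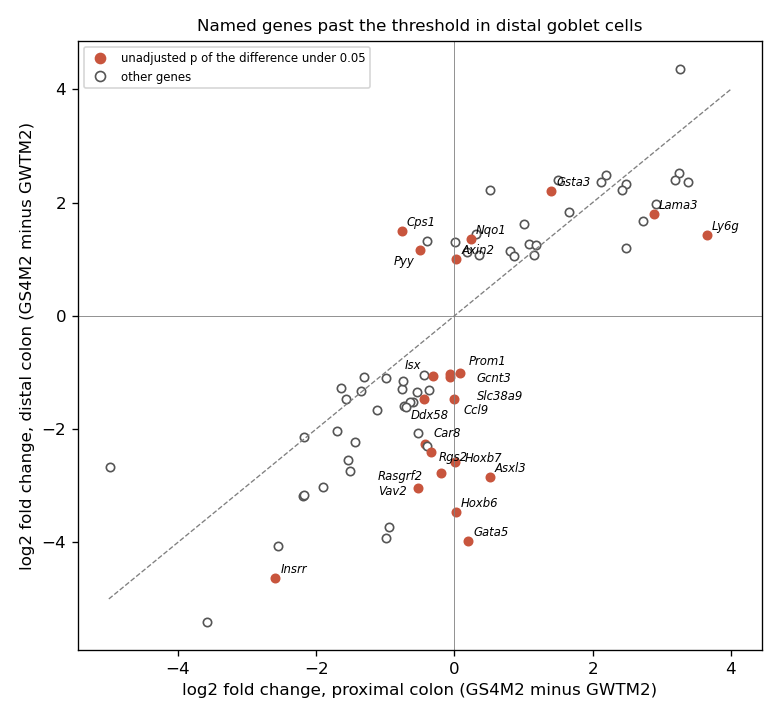
Log2 fold change of GS4M2 against GWTM2 in distal (vertical axis) and proximal goblet cells (horizontal axis), with deposited column names, for 77 named genes past the unadjusted threshold in distal cells; the dashed line marks equal values. The 22 filled points are genes whose segments differed at an unadjusted p under 0.05, among them Hoxb6, Asxl3 and Car8 near 0 in proximal cells, and none of them passed adjustment with these names.

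Distal goblet cells of GA3M2 mice, in which Alk3 was deleted in the stroma, were set against the same 2 GWTM2 libraries, so the values of both knockouts share their controls and are given side by side only. In GA3M2 cells 4.12% of genes were past the unadjusted threshold. Muc2 was 16015 and 12294 in GA3M2 libraries, a log2 fold change of -2.26, against 1.62 in GS4M2 cells. Car8 differed by 0.68 against -2.27, Insrr by 0.73 against -4.63 and Sgk1 by 1.13 against -1.47. Lama3 differed by 3.46 against 1.79, Cldn4 by 3.15 against 1.98, Usp18 by -1.49 against -2.54 and Ddx58 by -1.58 against -1.46. The first 4 genes lay on opposite sides of 0 in the 2 knockouts and the last 4 on the same side, and these differences between knockouts were not tested.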

How the data were processed

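RNA of sorted cells was sequenced after library preparation with a SMARTER mRNA-Seq kit, per the labels. The authors mapped reads to mm10 with STAR (2.5.3), counted genes with a program and annotation not given in the sources used here, and deposited a normalized signal per gene, that is, gene counts divided by a DESeq2 (1.28.1) size factor per library within each table. Strand use in counting is not given in the sources used here. In each column all values (100%) were whole multiples of 1 step within 0.1, so whole reads were recovered. Rows without a gene name (4, with 20.9% to 28.2% of the summed values of a distal library) and 17 symbols turned into dates were not used for naming, and only the former were left out of tests. The GWTM2 libraries hold identical reads in the table shared with GA3M2.

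Values were taken as log2(value + 1) for genes with a mean of at least 10 and fitted with limma 3.58.1 (R 4.3.3) (empirical Bayes with a mean trend). Adjusted p are Benjamini-Hochberg values over all genes tested, from limma unless another tool is named. A call needed an adjusted p under 0.05 with a log2 fold change of at least 1 in size. Fold changes on this scale understate those of low genes. Alternatives were edgeR 4.0.16 (quasi-likelihood, TMM) and DESeq2 1.42.0, both on recovered reads, other pseudocounts and filters, upper-quartile rescaling, the replicate block and leaving out each library, in which the lone library was assumed to vary like the other group. The segments were compared in a limma interaction over both tables. Scripts were tested on simulated data.

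Genes were named by rule: the study's mucin and transport genes, Smad4, Bmpr1a and Gli1; the 15 largest differences in each direction past the unadjusted threshold with groups apart and a mean of at least 50, unnamed gene models and sex-linked genes left out; and in each list the members past the threshold and the 4 of highest mean. Named outside it, after their values were seen, were Atoh1, Ciita, Creb3l2, Emc8, Eno1, Fkbp11, Gata6, H2-Aa, Ifih1, Ifit1, Isg15, Lgr5, Mmp7, Muc3a, Pck1, Tff3, Top2a, Xbp1 and Xist. The members and the gene lists were chosen with earlier results of these data known. Promoter sequences are those of RefSeq for GRCm38.p6, and positions come from the GENCODE annotation of GRCm38. For a count of 0 the upper limit is 3 reads, for counting error alone.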

Additional observations from a re-analysis of the deposited data

Results flagged for a closer look

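In 4 genes the GS4M2 libraries lay above the GWTM2 libraries in one colon segment and below them in the other, with the deposited names of the proximal columns. The distal minus proximal difference in log2 fold change was 2.26 for Cps1 (SE 0.51, unadjusted p = 0.00291), with 180.3 and 138 in proximal GWTM2 and 76.7 and 112 in proximal GS4M2 libraries. For Gata5 it was -4.17 (SE 1.05, unadjusted p = 0.005), with proximal values of 31.8 and 32.4 against 33.6 and 40.7. For Insl5 it was 4.15 (SE 1.29, unadjusted p = 0.014), from low proximal values of 18.9 and 8.64 against 5.26 and 0, and for Pyy 1.65 (SE 0.59, unadjusted p = 0.0256), with 61.8 and 56.1 against 32.6 and 52.9. The limma adjusted p was 0.565 for each of the 4. With the proximal groups exchanged the differences were 0.73 for Cps1, -3.77 for Gata5, -0.78 for Insl5 and 0.66 for Pyy.

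The 4 rows of the distal table that carry no gene name held up to 28.2% of the summed values of a library. They entered no comparison, and what they count was not determined.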

How the results depend on the processing

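With 2 libraries per group, the calls depended on the tool and on single libraries more than on the scale of the values. The count of genes called after adjustment was 0 in limma with other pseudocounts, filters, rescaling or the replicate block and in edgeR, 147 in DESeq2, and 0 to 232 when 1 library was left out, with 232 without the first and 174 without the second GWTM2 library and 0 without either GS4M2 library. The count past the unadjusted threshold was 353, 221 with a mean value of at least 50, and 259 to 729 when 1 library was left out, with 729 without the first and 697 without the second GWTM2 library; fits without a GS4M2 library assume the lone library to vary as the GWTM2 libraries do. The other alternatives gave 292 to 392. The equal numbers of the libraries do not pair them (correlation of replicate differences across genes -0.06), and with the replicate block the count was 373 and Muc2 kept its log2 fold change of 1.62 (adjusted p = 0.382). For Muc2 DESeq2 gave 1.46 (adjusted p = 0.0253) and leaving out 1 library 0.92 to 2.32, the last without the second GWTM2 library (limma adjusted p = 0.0314). Smad4 in stromal cells ranged from -0.57 to -1.35 and had an adjusted p above 0.05 without either control library (limma adjusted p = 0.158 and 0.144). The count of genes that differed between segments after adjustment was 0 with the other pseudocounts, a mean of at least 50, the block and each distal library left out, and 160 with the proximal groups exchanged.

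The direction of some named genes that overlapped between groups turned. Spdef was -0.0118 in edgeR and -0.00853 in DESeq2. With 1 library left out, the log2 fold change ranged from -0.34 to 0.42 for Spdef, -0.59 to 0.90 for Muc3, -0.44 to 0.15 for Muc13, -0.22 to 0.15 for Muc20, -1.01 to 0.69 for Slc16a9, -2.12 to 0.36 for Slc26a3, -0.54 to 0.33 for Fxyd3, -1.19 to 0.85 for Chp2 and -0.18 to 0.0942 for Slc16a10. Of the 94 to 97 named genes that could be fitted with 1 library left out, 66 to 79 kept direction and side of the unadjusted threshold, and under the other alternatives 91 to 97 of 97 did, or 86 of 89 with a mean value of at least 50; the causes were not tested.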

Other observations

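Genes known to be induced by glucocorticoids were among those lower in GS4M2 goblet cells, and are grouped here after their values were seen. Fkbp5, a co-chaperone of the glucocorticoid receptor, was 2867 and 1450.0 in GWTM2 and 862 and 603 in GS4M2 libraries (-1.50 on the log2 scale, SE 0.36, DESeq2 adjusted p = 0.00294), Tsc22d3, or GILZ, was 739.6 and 778 against 446 and 441 (-0.77, SE 0.13, DESeq2 adjusted p = 0.00744) and Per1 was 1082 and 645 against 518 and 575 (-0.61, SE 0.27). With Sgk1 (-1.47) and Pck1 (-1.15), these 5 were picked as lower genes, so their shared direction is no evidence of its own. With the deposited names their proximal log2 fold changes were -1.20, -0.80, -0.41, -1.56 and -0.76, and with the other headings each sign would turn. The receptor genes Nr3c1 (968 and 1446 against 984 and 1171) and Nr3c2 (1958 and 2591 against 1654 and 2022) overlapped between the groups.

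Genes that differ between proximal goblet cells and distal GA3M2 goblet cells were listed from libraries outside the distal comparison. These were the 4 proximal libraries and the 2 distal GA3M2 libraries, whose tables were normalised separately. The distal side held Alk3 knockout cells only, so a gene that this knockout changes can enter the lists as a segment gene. Muc2 took 0.0932% and 0.0752% of reads on named genes in these GA3M2 libraries, against 0.243% and 0.627% in distal GWTM2 libraries. Segment and knockout cannot be told apart here. The lists were made after the Hoxb6 values were seen. Of 48 genes at least 4-fold higher in every proximal library, 11 were past the threshold and lower in distal GS4M2 cells (22.9%), among them Vav2, Celf2, Ntrk2, Hoxb6 and Hoxb7, 1 was higher, Muc2, and the median log2 fold change was -0.94. Among the 12862 genes measured in all of these tables, 1.46% were past the threshold and lower and 1.07% higher. Of 34 genes at least 4-fold higher in both distal GA3M2 libraries, 4 were past the threshold and higher (11.8%), among them Ly6g, Trf and Nccrp1, 1 was lower, Dlk1, and the median was 0.28. Ly6g was also the 1 of 7 immune cell markers past the threshold, beside 1.25% of all genes higher, and DESeq2 called it. With a 2-fold limit the lower share was 12.7% of 213 proximal-high genes and the higher share 12.6% of 127 distal-high genes. Where along the distal colon the tissue of each library was taken is not given by the labels, and its part in these values was not tested.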
